A study of Gallus gallus with 24 samples.

Results

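Liver of newly hatched chicks was set against 3 other tissues of the same age, and the genes described are those whose signal in liver was above, or below, that in every one of them. The 12 arrays used, of 24 in the study, were the 3 liver arrays of day 0 and the 3 arrays each of whole brain, duodenum and breast muscle of day 0. The 12 arrays of day 7 served only to look at the same genes a week later. All birds were Ross broiler chickens, a meat-type strain, and were labelled male. The labels give no treatment for any group. Each array carried RNA of 1 pool of 4 to 5 chicks, from tissue frozen at collection, with 2 µg labelled with biotin. Whether pools of 1 tissue came from different birds is not stated in the labels, so the p-values below measure the spread between pools.

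The liver at hatch supplies most plasma proteins, packages lipid for export, makes glucose, bile acids and urate, and clears foreign compounds, and most of this work is done by 1 cell type, the hepatocyte. In birds it is also the main site of fatty acid synthesis, while the embryo and the new chick still burn yolk lipid. Kupffer cells, which are resident macrophages, and a porous endothelium line its blood channels.

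Each array gives 1 intensity per probe set, a group of short probes for 1 transcript, on a linear scale. Differences below are log2 differences of liver from another tissue after adding 27.6, the 25th percentile of the day 0 signals, to every signal, so that a value of 1 is a doubling. The smallest difference is the one nearest to 0 of the 3, from brain, duodenum or muscle. A gene was called higher, or lower, where all 3 differences had the same sign and the largest of the 3 p-values was under 0.05 after Benjamini-Hochberg adjustment in a limma fit over 24748 probe sets. That adjusted p is the one printed beside a smallest difference. Signal ± values are SD over 3 pools, and log2 differences carry the standard error of the fit. The 3 differences share the same liver pools and are not independent.

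Tissue markers followed the labels. Of 11 listed hepatocyte markers 10 were on the array, and each of these was called higher in liver. Their signals summed to between 494971 and 556578 in liver pools, against 28719 to 41836 in brain, 10836 to 16647 in duodenum and 2145 to 2941 in muscle. The 5 brain markers summed to 85 to 167 in liver and 71690 to 83527 in brain. The 6 duodenum markers summed to 258 to 535 in liver and 65254 to 76841 in duodenum, and the 5 muscle markers on the array to 128 to 252 in liver and 211815 to 216779 in muscle. Liver pools correlated with each other at 0.968 to 0.969 on the log2 scale across probe sets, against 0.830 to 0.865 with duodenum, 0.788 to 0.795 with muscle and 0.714 to 0.722 with brain. Brain pool 1 had the lowest 5′ to 3′ log2 signal ratio of control genes, -1.48, and duodenum pool 2 an added-control signal of 21687 where the other 11 arrays had 6211 to 9180. Leaving out both arrays, a check added after seeing the data, 1917 probe sets were higher in liver and 1785 lower. The W-linked gene HINTW, which only females carry, was read at 1797 to 15934 although all 12 pools are labelled male, and how many birds of each sex a pool held was not tested.

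Of 24748 probe sets, 1668 (6.74%) were higher in liver than in every other tissue and 1518 (6.13%) were lower. The differences of large size lay on the higher side: 513 probe sets (2.07%) were at least 4-fold above every other tissue, and 131 (0.529%) at least 4-fold below. With other added values these counts ran from 414 to 546 and from 46 to 187. The 2 calls are unlike: a large lower call needs all 3 other tissues to be bright, a higher one only liver. How much of the skew comes from that was not tested. Higher calls made up 52.4% of all calls, and 66.9% when each array was centred on its median, which gave 2051 higher and 1017 lower and moved the median difference of all probe sets to 0.04 from -0.14. Taking the brightest probe set per gene left 11187 genes, of which 976 (8.72%) were higher and 787 (7.03%) lower. Among these, 298 (2.66%) were at least 4-fold higher and 69 (0.617%) at least 4-fold lower, and 46 were at least 100-fold higher. Tissue by tissue, liver was higher than brain for 29.6% of probe sets and lower for 31.4%, higher than duodenum for 15.4% and lower for 22.8%, and higher than muscle for 22.2% and lower for 26.8%. In bulk tissue, more cells of a type and more RNA per cell cannot be told apart. Many signals in the other tissues were under the added value, so the size of a large difference depends on it. Of 917 called genes with several probe sets tested, 312 had all of them called alike, and 1 had a probe set called the other way.

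The genes furthest above the other tissues mostly code for proteins secreted into blood. ORM1, an acute phase glycoprotein, had 50852, 50545 and 50954 in the liver pools, against 3.58, 15.7 and 5.39 in brain, 2.85, 12.8 and 4.02 in duodenum and 3.24, 4.07 and 3.20 in muscle. No other pool came near the liver pools, and the other tissues were all below the added value. The smallest difference was 10.49 ± 0.23, from brain (adjusted p = 2.28e-13). PIT54, the haemoglobin-binding protein that birds use in place of haptoglobin, had 55663, 59028 and 60780 in liver, with at most 34.2 in any brain pool, 27.8 in any duodenum pool and 5.90 in any muscle pool. Its smallest difference was 10.30 ± 0.24. The α2-macroglobulin-like genes A2ML2 (10.27) and A2ML4 (9.13), the bone- and plasma-associated phosphoprotein SPP2 (9.80) and the chains of fibrinogen, FGA (9.98), FGG (9.49) and FGB (9.46), followed. FGA had 55060, 59068 and 63308 in liver, 14.7, 28.4 and 57.5 in brain, 4.93, 121 and 8.93 in duodenum and 5.6, 33.3 and 60.9 in muscle.

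**Figure D1:**
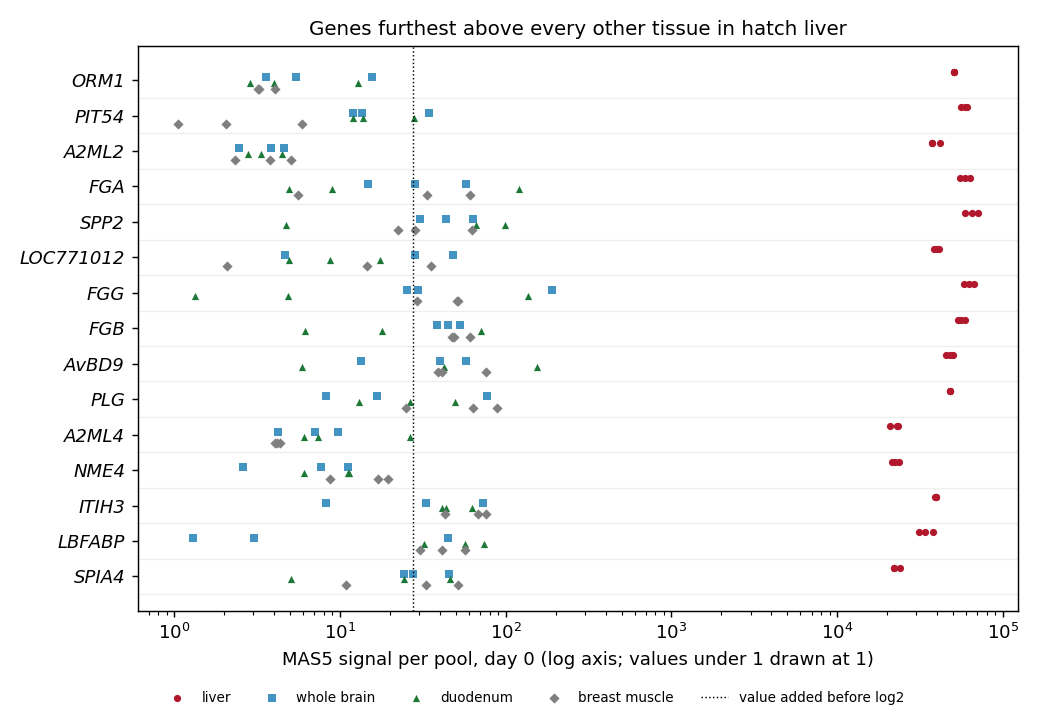
MAS5 signal of the 15 genes with the largest smallest difference above every other tissue, 1 row per gene, on a log axis. Each point is 1 of the 12 day 0 pools, and the dotted line is the value added before taking log2. The lowest liver pool is at 20864 and the highest pool of another tissue at 191.

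Not every gene in that group codes for a textbook plasma protein. AvBD9, a β-defensin of innate defence, had 45261, 47725 and 49975 in liver and at most 57.8 in brain, 155 in duodenum and 75.8 in muscle (smallest difference 9.26 ± 0.45, adjusted p = 4.85e-10). LBFABP, the basic fatty acid binding protein of bird liver, averaged 34309 ± 3436 in liver, 16.3 ± 24.5 in brain, 54.2 ± 21.0 in duodenum and 42.9 ± 13.4 in muscle. LOC771012, a locus with no gene name in the tables used here, averaged 39747 ± 1297 in liver and at most 27.1 in another tissue. For NME4, a nucleoside diphosphate kinase, only 1 of 3 probe sets was called, so its smallest difference of 9.05 rests on that one.

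Of 41 listed plasma carrier and acute phase genes, 29 were on the array and 27 passed the filter on low values, and 25 of the 27 were higher in liver and 0 lower. Their median difference from the mean of the other tissues was 8.06, against -0.09 over all 11187 genes. Members of every list entered the tests only where at least 1 tissue was bright, so the counts over tested members are a description and lean to genes that differ between tissues. Albumin (ALB), the main plasma carrier, averaged 63218 ± 4653 in liver, 220 ± 81.1 in brain, 67.9 ± 10.4 in duodenum and 88.6 ± 45 in muscle. Transferrin (TF), which carries iron, averaged 50914 ± 2351 in liver and 3551 ± 914 in brain, its nearest tissue, a difference of 3.86 ± 0.22. Transthyretin (TTR), the thyroid hormone carrier, was the smallest call in the list: it had 41357, 42771 and 46193 in liver and 32020, 22932 and 20021 in brain, so that the pools did not overlap but the difference was only 0.82 ± 0.22 (adjusted p = 0.0195). The members that did not pass were CP, the copper carrier ceruloplasmin, and FN1, fibronectin. ALB and TTR, like the other list members printed below that were neither among the 4 largest calls of their list nor hepatocyte factors, were chosen after their values were seen.

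Clotting and complement genes were also mostly higher. Among 22 coagulation genes tested, of 24 listed, 19 were higher in liver and 0 lower, with a median difference of 6.39. Plasminogen (PLG), which dissolves clots, had 47728, 47785 and 47979 in liver and at most 88.9 in any other pool. Prothrombin (F2) averaged 20861 ± 925 in liver, 3.40 ± 2.24 in brain, 382 ± 117 in duodenum and 5.31 ± 3.13 in muscle. The 3 that did not pass were PROS1, TFPI and VWF, proteins known from endothelium. In the complement list 12 of 15 tested genes, of 20 listed, were higher and 1 was lower, with a median of 5.68. C3, the central component, averaged 35367 ± 589 in liver, 4.12 ± 1.62 in brain, 120 ± 16.1 in duodenum and 113 ± 49.2 in muscle, and the pore subunits C8B and C8A had smallest differences of 8.46 and 8.17. The lower member was clusterin (CLU), a chaperone that also inhibits complement, with 96.5, 89.3 and 23.6 in liver, 1331, 981 and 1156 in brain, 147, 172 and 309 in duodenum and 419, 423 and 421 in muscle. Its call was lost without duodenum pool 3.

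**Figure D2:**
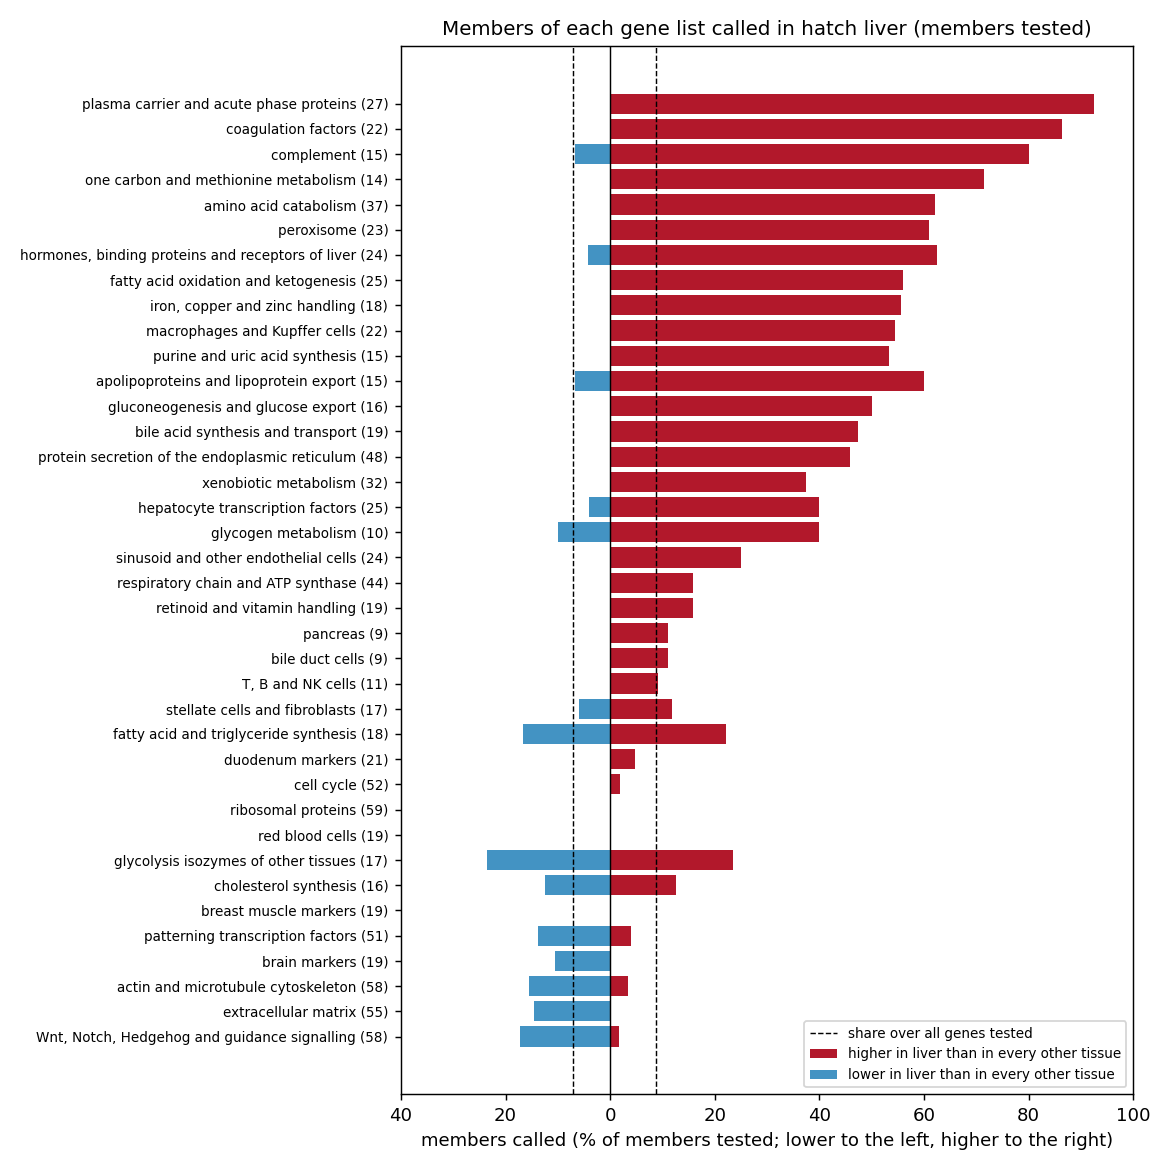
Share of tested members of each of 38 gene lists called higher in liver than in every other tissue (to the right) or lower (to the left), in percent, with the number tested in brackets. Dashed lines mark the shares over all 11187 genes, 8.72% higher and 7.03% lower. Plasma protein, coagulation and complement lists reach furthest right, while signalling, matrix, cytoskeleton and patterning lists lie mostly left.

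Lipoprotein genes were more widely shared. Of 15 tested members of 25 listed, 9 were higher and 1 lower, with a median of 3.89. Hepatic lipase (LIPC) had 15590, 14482 and 15119 in liver and at most 42.6 in any other pool, a smallest difference of 8.01 ± 0.28. LCAT, which esterifies plasma cholesterol, averaged 26278 ± 483 in liver and 418 ± 91.7 in muscle, its nearest tissue. APOB, the scaffold of lipoproteins, averaged 35475 ± 2774 in liver and 10016 ± 2913 in duodenum, with 40.5 ± 18.7 in brain and 27.0 ± 34.0 in muscle, so its smallest difference was 1.86 ± 0.33 (adjusted p = 0.000811). APOA4 had 27120, 29025 and 29825 in liver and 5263, 7002 and 8676 in duodenum, and was the 1 member called higher in liver among 21 tested duodenum markers (23 listed; median -1.82). APOH, a phospholipid-binding plasma protein, had its nearest tissue in brain, where it averaged 4546 ± 912 against 48669 ± 828 in liver. The lower member was the receptor VLDLR, which takes up lipoprotein in muscle and other tissues, with 279 ± 49.1 in liver, 1138 ± 55.1 in brain, 781 ± 47.1 in duodenum and 4655 ± 118 in muscle (smallest difference -1.41 ± 0.14).

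Some genes that are bright in liver were bright in duodenum too. Duodenum lay nearest to liver for 506 of the 976 higher genes and for 131 of the 298 at least 4-fold higher, beside 5153 of all 11187 genes. Both shares were near that over all genes and do not set the higher genes apart. Liver was higher than both brain and muscle for 2317 genes (20.7%), of which 1341 were not called higher than every tissue and 309 were lower in liver than in duodenum. FABP1, the liver fatty acid binding protein, was one of the shared genes, with 47735, 47658 and 53063 in liver and 34870, 66472 and 41576 in duodenum, against at most 12.5 in brain and 71.6 in muscle. The liver pools lay inside the range of the duodenum pools (difference 0.11 ± 0.28). MTTP, which loads lipid onto APOB, averaged 5190 ± 238 in liver and 4549 ± 738 in duodenum. UGT1A1, which conjugates bilirubin, averaged 26677 ± 1214 in liver and 36454 ± 14852 in duodenum.

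Foreign compound metabolism followed this split. Of 46 listed genes 32 were tested, and 12 were higher in liver than in every tissue, 0 lower, with a median of 2.52. A further 15 were higher than in brain and muscle but were not called higher than in every tissue, beside 1341 of all 11187 genes. Of these 15, 7 were lower in liver than in duodenum, beside 309 over all genes. CYP1A1 and CYP1A2, oxidases induced by aryl hydrocarbons, averaged 2320 ± 524 and 4308 ± 549 in liver and 81.2 ± 51.4 and 265 ± 41.8 in duodenum. The cytochrome CYP2W2 had 2596, 2836 and 2208 in liver and at most 62.2 in any other pool. The glutathione transferase GSTA3 ran the other way between these tissues, with 4514 ± 316 in liver and 28165 ± 2630 in duodenum, against 72.3 ± 24 in brain and 75.2 ± 5.41 in muscle.

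Amino acid breakdown was among the lists with most higher genes outside blood proteins. Of 37 tested genes, of 44 listed, 23 were higher in liver and 0 lower, with a median of 2.44. TAT, the first enzyme of tyrosine breakdown, had 11300, 15954 and 14200 in liver, 2.95, 2.45 and 4.33 in brain, 8.58, 6.47 and 64.1 in duodenum and 21.1, 6.95 and 7.53 in muscle, a smallest difference of 8.15 ± 0.35 (adjusted p = 1.12e-10). All liver pools were far above the rest. HGD, further down the same path, and HAAO, of tryptophan breakdown, had smallest differences of 7.35 and 6.95. DPYS, which degrades pyrimidines, was 7.21 above its nearest tissue. The urea cycle members CPS1 and ASS1 were not called higher in liver. CPS1 averaged 112 ± 29.0 in liver, 79.0 ± 23.0 in brain, 60.2 ± 6.69 in duodenum and 130 ± 11.3 in muscle. These signals were around the filter value of 102, so they say little about differences between tissues. ASS1 averaged 853 ± 69.6 in liver, below the 2187 ± 385 of brain.

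Purine synthesis, by which birds make urate, had 8 higher and 0 lower of 15 tested genes (19 listed; median 1.47). GART, which carries 3 steps of the path, had 20340, 21072 and 22082 in liver, 303, 328 and 309 in brain, 820, 534 and 897 in duodenum and 725, 757 and 832 in muscle. The pools of the 4 tissues left a wide gap below liver, and the smallest difference was 4.73 ± 0.17 (adjusted p = 1.49e-11). ATIC, the last enzyme of the path, averaged 37033 ± 2574 in liver and 4955 ± 240 in muscle, and PPAT, the first, 15672 ± 1077 in liver and 2545 ± 481 in duodenum. PRPS2, which makes the ribose donor, reached 36721 ± 1010 in liver and 3994 ± 778 in muscle, with 37.6 ± 7.01 in brain and 36.4 ± 7.07 in duodenum. XDH, which forms urate, had 705, 2426 and 2624 in the liver pools, 1 of them well below the others, and 305, 188 and 264 in duodenum, its nearest tissue.

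One-carbon metabolism, which feeds purine synthesis and methylation, had 10 higher and 0 lower of 14 tested genes (19 listed; median 2.37). MTHFD1, a folate enzyme, averaged 24181 ± 1672 in liver, 710 ± 26.1 in brain, 2726 ± 119 in duodenum and 1287 ± 22.4 in muscle. MAT1A, the liver form of the enzyme that makes S-adenosylmethionine, averaged 36628 ± 1672 in liver, and its nearest tissue was muscle with 2581 ± 209. SHMT1, which moves the serine carbon to folate, had the largest smallest difference of the list, 5.56. GNMT, which disposes of excess methyl groups, averaged 12852 ± 856 in liver and 912 ± 185 in muscle, but only 1 of its 3 probe sets was called.

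Fat burning enzymes were higher by modest amounts and fat making enzymes were divided. Of 25 tested oxidation and ketogenesis genes, of 33 listed, 14 were higher in liver, 0 were lower and the median was 1.53. CPT1A, the gate for fatty acid entry into mitochondria, had 3032, 2684 and 3342 in liver, 58.8, 188 and 183 in brain, 365, 589 and 655 in duodenum and 205, 80.5 and 233 in muscle (smallest difference 2.47 ± 0.37, adjusted p = 0.000158). EHHADH, of peroxisomal oxidation, averaged 10972 ± 1219 in liver and 2693 ± 266 in duodenum. Peroxisome genes as a list had 14 higher and 0 lower of 23 tested (30 listed; median 1.46), led by the hydroxyacid oxidase HAO1, 6.20 above its nearest tissue. Muscle burns fat as well, and ACSL1, which activates fatty acids, averaged 12243 ± 717 in liver and 4277 ± 271 in muscle.

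Among 18 tested genes of fatty acid and triglyceride synthesis, of 21 listed, 4 were higher and 3 lower, with a median of 0.88. The shares over all genes were 8.72% higher and 7.03% lower. The citrate carrier SLC25A1, which exports the carbon for synthesis, averaged 25957 ± 738 in liver and 4212 ± 1032 in duodenum (2.64 ± 0.17). Fatty acid synthase (FASN) had 8374, 14909 and 12445 in liver and 4722, 3789 and 5553 in brain, and ACLY, which makes its acetyl-CoA, averaged 9231 ± 2360 in liver and 4133 ± 507 in brain. For both genes 1 of 2 probe sets was called. The desaturase FADS2 was lower, with 5.06, 87.6 and 70.5 in liver, 2904, 1960 and 1756 in brain, 208, 167 and 133 in duodenum and 327, 431 and 373 in muscle (smallest difference -1.44, adjusted p = 0.0159), and that call was lost without duodenum pool 1. MID1IP1, which activates acetyl-CoA carboxylase, averaged 806 ± 139 in liver and 1517 ± 180 in muscle. DGAT2, the last step of triglyceride synthesis, averaged 72.1 ± 2.96 in liver and 165 ± 18.3 in brain, a call lost under 11 of 22 settings and made for 1 of 2 probe sets. Without duodenum pool 1 only 1 member of this list was lower.

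Cholesterol synthesis had 2 higher and 2 lower of 16 tested genes (21 listed), beside 8.72% higher and 7.03% lower over all genes. These small counts do not set the list apart. Its median of -0.68 was below that of all genes. HMGCS1, which serves the pathway in the cytosol, had 16175, 17428 and 19705 in liver and 6313, 6816 and 6077 in brain, its nearest tissue. Squalene epoxidase (SQLE) had 96.0, 132 and 79.3 in liver, 4136, 4015 and 3548 in brain, 432, 350 and 336 in duodenum and 139, 204 and 218 in muscle. It was close to muscle (-0.72, adjusted p = 0.0337). MVD, which makes the isoprenoid unit, averaged 265 ± 81.0 in liver, 923 ± 132 in brain, 571 ± 191 in duodenum and 574 ± 127 in muscle. The SQLE call was lost under 9 of 22 settings and the MVD call under 3, and without liver pool 1 the list had 0 lower members.

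Glucose output genes had 8 higher and 0 lower of 16 tested (21 listed; median 1.97). PCK1, the cytosolic enzyme that commits carbon to glucose, had 4572, 5991 and 7010 in liver, 702, 322 and 551 in duodenum and at most 31.7 in brain and muscle pools (3.46 ± 0.32). FBP1, a later step, averaged 49572 ± 1027 in liver and 10904 ± 1150 in duodenum. GCGR, the glucagon receptor, had 1300, 1225 and 956 in liver and at most 57.1 in any other pool. Of 10 tested glycogen genes, of 14 listed, 4 were higher and 1 lower (median 1.35), beside 8.72% and 7.03% over all genes. GYS2, the liver glycogen synthase, averaged 1727 ± 40.7 in liver and at most 37.6 elsewhere. The lower member was GYG1, the primer of glycogen, with 536 ± 62.5 in liver, 1716 ± 134 in brain, 1350 ± 307 in duodenum and 8924 ± 656 in muscle.

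Glycolytic isozymes known from other tissues, with carriers of glucose, lactate and pyruvate, were divided. Of 17 tested members, of 24 listed, 4 were higher in liver and 4 lower, with a median of 0.11. Over all genes 8.72% were higher and 7.03% lower. Hexokinase HK1, which traps glucose in brain and muscle, had 250, 255 and 253 in liver, 7385, 6186 and 6715 in brain, 894, 767 and 752 in duodenum and 2245, 2267 and 2284 in muscle (smallest difference -1.57 ± 0.13, adjusted p = 2.80e-07). ALDOC, an aldolase known from brain, and PFKP, a phosphofructokinase, had smallest differences of -1.39 and -1.21. LDHB, which favours lactate use, averaged 43336 ± 1520 in liver, 19682 ± 1002 in brain, 9162 ± 298 in duodenum and 13662 ± 1416 in muscle. The lactate and ketone carrier SLC16A1 averaged 14300 ± 1272 in liver and 2544 ± 138 in muscle. MPC2, a subunit of the mitochondrial pyruvate carrier, was 1.81 above its nearest tissue, with 1 of 2 probe sets called. The enolase ENO1 (higher) and the glucose carrier SLC2A1 (lower) each lost the call under 7 of 22 settings tried.

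Bile acid genes had 9 higher and 0 lower of 19 tested (24 listed; median 3.35). CYP7A1, which starts bile acid synthesis from cholesterol, had 3248, 2475 and 1669 in liver and at most 57.5 in any other pool, 5.08 ± 0.36 above its nearest tissue. CYP8B1, which sets the kind of bile acid made, averaged 18201 ± 2958 in liver and at most 86.6 in another tissue (7.31 ± 0.28). CYP27A1, which starts side chain cleavage, averaged 5054 ± 408 in liver and 637 ± 39.2 in brain. A further 7 members were higher in liver than in brain and muscle but did not pass against all 3 tissues. Over all genes, 1341 of 11187 were of this kind. Of the 7 members, 2 were lower in liver than in duodenum, beside 309 over all genes. The reason was not tested.

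Metal and vitamin carriers came next. Of 18 tested iron, copper and zinc genes, of 24 listed, 10 were higher and 0 lower (median 2.77). TMPRSS6, a protease that restrains the iron hormone hepcidin, had 3993, 3530 and 3972 in liver and at most 53.6 in any other pool. Haemopexin (HPX), which carries free haem, averaged 28080 ± 131 in liver and 687 ± 44.3 in duodenum. Of 19 tested retinoid and vitamin genes, of 25 listed, 3 were higher and 0 lower (median 0.46), beside 8.72% and 7.03% over all genes. GC, the vitamin D carrier, led the higher members with 42424 ± 1204 in liver and 1415 ± 173 in duodenum.

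Transcription factors known from hepatocytes were divided between called and not called. Of 25 hepatocyte transcription factors tested, of 32 listed, 10 were higher in liver and 1 lower, with a median of 1.89. PROX1, a homeobox factor of liver and lymphatic vessels, had 12246, 11152 and 10894 in liver, 831, 915 and 928 in brain, 748, 731 and 733 in duodenum and 304, 295 and 269 in muscle. Its smallest difference was 3.64 ± 0.13 (adjusted p = 1.32e-11). HHEX, needed for the liver bud, had 14503, 12887 and 12023 in liver, 1402, 851 and 893 in brain, 1243, 2086 and 1349 in duodenum and 2098, 1677 and 1478 in muscle (2.90 ± 0.21). These were the only 2 at least 4-fold above every tissue.

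The other 8 higher factors had smallest differences from 0.53 to 1.54. NR1H4, the bile acid receptor, averaged 1562 ± 131 in liver, 518 ± 40.7 in duodenum and no more than 32.2 in brain and muscle. NR5A2, which acts with it, averaged 2821 ± 11 in liver and 1430 ± 98.0 in duodenum, with 1 of 2 probe sets called. XBP1, which drives the secretory apparatus, averaged 14718 ± 588 in liver, 4647 ± 295 in brain, 7664 ± 576 in duodenum and 5385 ± 572 in muscle (0.94 ± 0.12). CEBPB averaged 5191 ± 208 in liver and 3235 ± 759 in muscle (0.70 ± 0.17). PPARA, the fatty acid sensor, was 0.70 and NR1H3, the oxysterol sensor, 0.53 above the nearest tissue. The CEBPB call was lost under 2 of 22 settings and those of PPARA and NR1H3 under 3 each. CREB3L3 (0.82) and TBX3 (1.48) passed with adjusted p of 0.0394 and 0.0469 and lost the call under 12 and 14 of 22 settings tried. Without liver pool 1 the list had 6 higher members.

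**Figure D3:**
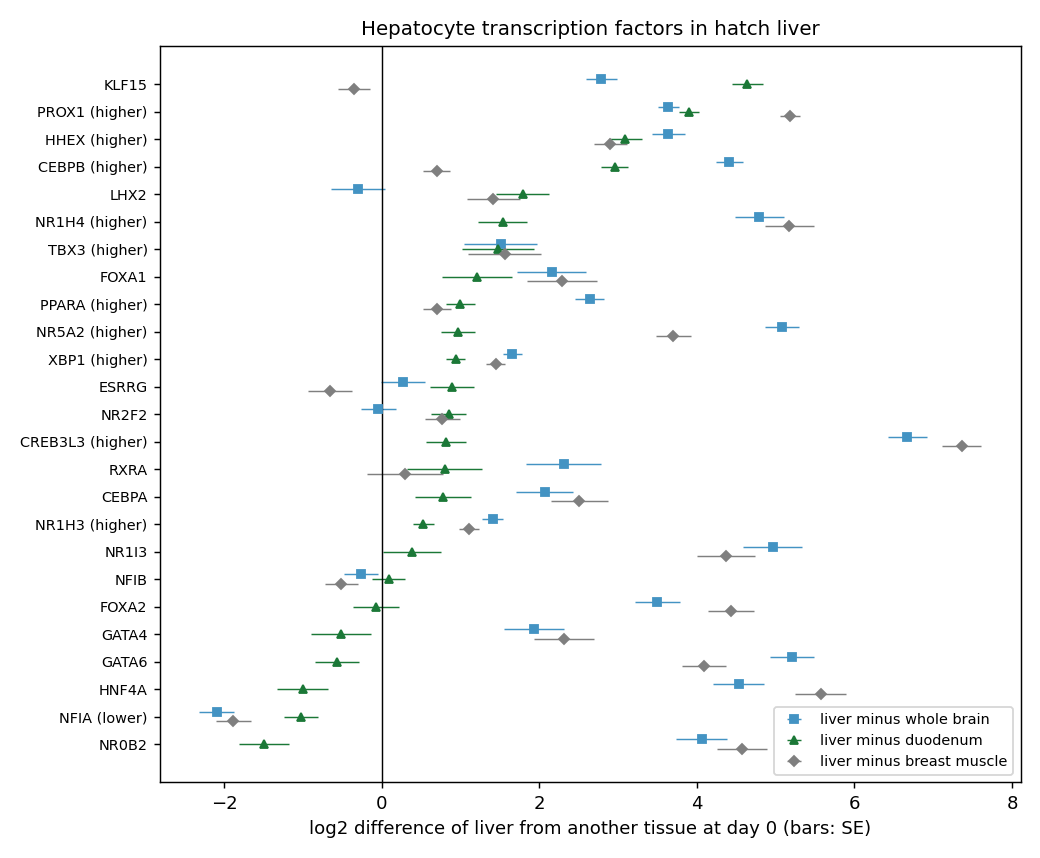
Log2 differences of liver from whole brain (squares), duodenum (triangles) and breast muscle (diamonds) for the 25 tested hepatocyte transcription factors, with bars of 1 standard error. The words in brackets mark the 10 called higher and the 1 called lower. HNF4A, GATA6 and NR0B2 lie at 4 or above against brain and muscle and below 0 against duodenum.

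Several factors central to hepatocyte identity were not above duodenum. HNF4A had 2228, 1604 and 1438 in liver, 49.7, 73.3 and 28.0 in brain, 3516, 2397 and 5004 in duodenum and 26.6, 3.27 and 2.63 in muscle. Liver was above brain and muscle and below duodenum, and against duodenum the difference was -1.0 ± 0.32 (adjusted p = 0.0205 for that pair). FOXA2 averaged 810 ± 51.1 in liver and 853 ± 64.0 in duodenum, and GATA6 2738 ± 405 in liver and 4161 ± 1096 in duodenum. The lower factor was NFIA, with 776 ± 75.4 in liver, 3447 ± 887 in brain, 1662 ± 529 in duodenum and 2929 ± 209 in muscle.

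Of 24 tested hormones, binding proteins and receptors, of 38 listed, 15 were higher and 1 lower (median 2.68). IGFBP1, which binds insulin-like growth factors and is known to respond to fasting, had 12284, 14657 and 17102 in liver, 97.1, 71.0 and 50.6 in brain, 363, 304 and 330 in duodenum and 1.90, 5.03 and 17.9 in muscle (5.34 ± 0.24). BMP10, a circulating endothelial ligand, had 1397, 1124 and 1154 in liver and at most 67.6 in any other pool. LECT2, a cytokine made by hepatocytes, had 8223 in liver pool 1 and 4407 and 4299 in the others, all above the 879 that was the highest of the other tissues. The prolactin receptor PRLR was lower, with 73.1 ± 17.3 in liver, 200 ± 34.8 in brain, 1322 ± 223 in duodenum and 181 ± 32.6 in muscle.

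Genes of the secretory machinery were higher by small steps. Of 48 tested endoplasmic reticulum genes, of 52 listed, 22 were higher and 0 lower, but with a median of only 0.97, and quantile normalization left 10. No member was 4-fold higher. HSP90B1, a chaperone of secreted proteins, had 28128, 34470 and 32151 in liver, 6545, 8110 and 6439 in brain, 15454, 10408 and 14041 in duodenum and 9544, 11924 and 12188 in muscle (1.26 ± 0.16, 1 of 2 probe sets called). SEC61G, part of the protein channel, was 1.58 and MCFD2, a cargo receptor for clotting factors, 1.37 above the nearest tissue. Of 44 tested respiratory chain genes, of 64 listed, 7 were higher and 0 lower (median 0.55), beside 8.72% and 7.03% over all genes. COX7C led at 0.95, with 1 of 2 probe sets called. The higher count ran from 4 without the variance trend to 12 with array weights. Of 59 tested ribosomal protein genes, of 71 listed, limma called 0 either way (median 0.34), with 1 higher and 0 lower at an unadjusted p under 0.05. Pair by pair, 57 ribosomal genes were higher in liver than in brain, where 35.2% of all genes were, 14 higher than in duodenum (18.6% of all) and 1 higher than in muscle (27.9% of all).

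Cell division genes stood between the tissues. Of 52 tested genes, of 60 listed, 43 were higher in liver than in both brain and muscle, where 20.7% of all genes were. Of these 43, 22 were lower in liver than in duodenum, beside 309 of the 2317 over all genes. Among the listed genes only CHEK1, a checkpoint kinase, was higher than in every tissue. It had 1 of 3 probe sets called and lost the call without liver pool 2. MKI67, which marks dividing cells, had 2742, 3673 and 3427 in liver, 445, 271 and 338 in brain, 7728, 6720 and 7245 in duodenum and 739, 666 and 636 in muscle. The liver pools lay above every brain and muscle pool and below every duodenum pool.

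Among the lists for other cell types of the liver, the macrophage list held most higher genes. Of 22 tested macrophage genes, of 34 listed, 12 were higher in liver and 0 lower (median 1.65). Of these, MRC1 was also on the endothelial list and counts in both. MRC1, the mannose receptor, had 6301, 6955 and 6874 in liver, 18.5, 8.81 and 56.6 in brain, 133, 137 and 64.3 in duodenum and 248, 215 and 188 in muscle (4.79 ± 0.30, adjusted p = 1.05e-08). MARCO, a scavenger receptor of Kupffer cells, averaged 2697 ± 82.0 in liver and at most 170 in another tissue, and TIMD4, which binds dying cells, 1955 ± 103 in liver and at most 134. The general macrophage receptor CSF1R overlapped with muscle, at 1461 ± 38.0 in liver and 1406 ± 147 in muscle.

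Endothelial genes were less marked, with 6 higher, MRC1 among them, and 0 lower of 24 tested (29 listed; median 0.89). OIT3, a secreted zona pellucida domain protein, averaged 15206 ± 254 in liver, 722 ± 187 in brain, 599 ± 42.4 in duodenum and 1653 ± 362 in muscle, and the angiopoietin receptor TEK 3823 ± 176 in liver and 1335 ± 76.1 in muscle. STAB1, a scavenger receptor of liver sinusoids, averaged 761 ± 93.7 in liver and 233 ± 13.9 in muscle. LYVE1, also known from sinusoids and lymphatics, averaged 706 ± 137 in liver and 1060 ± 153 in duodenum. Of 17 tested stellate cell and fibroblast genes, of 21 listed (median 0.39), 2 were higher, the collectins COLEC11 and COLEC10, and 1 was lower, the receptor PDGFRA, which had 1 brain pool inside the liver range and lost its call without liver pool 2, brain pool 2 or brain pool 3. Bile duct genes had 1 higher of 9 tested (16 listed; median -0.21), SPP1, and lymphocyte genes 1 of 11 (30 listed; median 0.41), CD4. The counts of the stellate, bile duct and lymphocyte lists were near the shares over all genes, 8.72% higher and 7.03% lower. Red cell genes, known to be read from blood left in a tissue, had 0 of 19 tested (34 listed; median 0.57) called either way by limma and 1 higher at an unadjusted p under 0.05, with HBA1 at 29493 ± 2287 in liver, 13062 ± 1373 in brain, 3848 ± 956 in duodenum and 34173 ± 1796 in muscle.

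Pancreas, which lies against the duodenum, was read in the duodenum pools. The 3 pancreas markers on the array, of 5 listed, summed to 239 to 1298 in liver and 30933 to 71650 in duodenum, and the part of that tissue in the duodenum values was not tested. Of 9 tested pancreas genes, of 18 listed (median -0.58), REG1A, a secreted lectin, was higher in liver, with 607, 302 and 173 in liver and at most 24.4 in any other pool.

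Genes below every other tissue were fewer at large sizes and had varied functions. PENK, the precursor of enkephalins, had 42.6, 32.0 and 16.8 in liver, 6899, 7280 and 6330 in brain, 1855, 1459 and 1312 in duodenum and 3500, 4690 and 3813 in muscle. Liver pools were near the added value while each other tissue was bright, and the smallest difference was -4.77 ± 0.19 (adjusted p = 4.15e-11). CAP2, which regulates actin turnover, had 135, 153 and 182 in liver, 4768, 5953 and 4614 in brain, 3286, 3311 and 2739 in duodenum and 4307, 5482 and 5146 in muscle (-4.09 ± 0.15), with 3 of 3 probe sets called. NRG1, a growth factor of nerve and muscle, was -3.68, with 1 of 2 probe sets called, and ACHE, which breaks down acetylcholine, -3.61 from its nearest tissue. The inhibitor of protein phosphatase PPP1R14C (-3.74), the neuronal receptor LINGO1 (-3.59), the Toll-like receptor helper TRIL (-3.49) and the cadherin CDH13 (-3.47) followed.

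**Figure D4:**
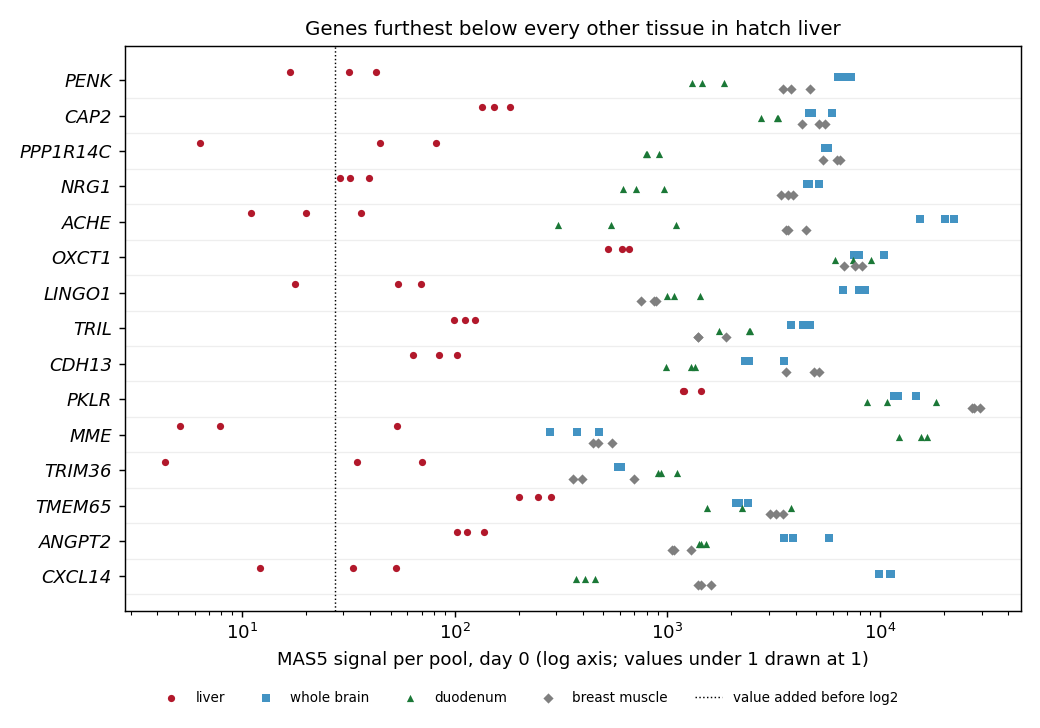
MAS5 signal of the 15 genes with the largest difference below every other tissue, 1 row per gene, on a log axis, with 1 point for each of the 12 day 0 pools. The dotted line is the value added before taking log2. By the rule that chose these genes, the 3 liver pools of each row lie left of all 9 other pools.

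An enzyme of ketone body use was among them. OXCT1, the enzyme that lets a cell burn ketone bodies and that mammalian hepatocytes are known to lack, had 609, 525 and 659 in liver, 10375, 7983 and 7537 in brain, 9083, 6158 and 7467 in duodenum and 7627, 8213 and 6752 in muscle. The liver pools lay below all 9 others, which lay close together. The difference was -3.59 ± 0.16 from duodenum (adjusted p = 2.20e-10), with 4 of 4 probe sets called. The pyruvate kinase annotated PKLR had 1432, 1183 and 1196 in liver, 14703, 12070 and 11634 in brain, 8714, 18242 and 10711 in duodenum and 27539, 26967 and 29380 in muscle (-3.21 ± 0.20). PKLR rests on 1 probe set, and which isoform that probe set reads was not tested.

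The other genes of the 15 were MME, a peptide-cutting enzyme of cell surfaces, the ubiquitin ligase TRIM36, the mitochondrial membrane protein TMEM65, the vessel ligand ANGPT2 and the chemokine CXCL14, with smallest differences from -3.13 to -2.92. MME had 5.13, 7.86 and 53.5 in liver, 377, 282 and 477 in brain, 16573, 12280 and 15519 in duodenum and 471, 549 and 446 in muscle. ANGPT2, which opposes the TEK ligand ANGPT1, averaged 118 ± 17.6 in liver, 4377 ± 1180 in brain, 1455 ± 62.2 in duodenum and 1138 ± 130 in muscle, whereas its receptor TEK was higher in liver.

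Lists of structure and development held more lower than higher calls, beside 7.03% lower and 8.72% higher over all genes. Of 58 tested cytoskeleton genes, of 68 listed, 2 were higher and 9 lower (median -0.63). Vimentin (VIM), the intermediate filament of connective tissue cells, had 2664, 2555 and 2572 in liver, 9101, 8836 and 8766 in brain, 8416, 5985 and 7479 in duodenum and 21951, 22412 and 24027 in muscle (-1.47 ± 0.12, adjusted p = 3.73e-07). The actin linker FLNC (-2.49) and the tubulins TUBB2A (-2.26) and TUBB2B (-1.41) were also lower, with 1 of 2 probe sets called for TUBB2A. ANXA5, which binds exposed phosphatidylserine, was higher by 0.85. RDX was higher by 0.44, a call lost under 13 of 22 settings and made for 1 of 3 probe sets.

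Of 55 tested matrix genes, of 57 listed, 0 were higher and 8 lower (median -0.44). Against brain alone, 35 members were higher in liver and 10 lower (median difference 1.26), beside 35.2% and 32.1% of all genes. Against duodenum 5 were higher and 38 lower, beside 18.6% and 27.0% of all genes. Against muscle 3 were higher and 47 lower, beside 27.9% and 27.5%. The collagen chain COL11A1 averaged 36.7 ± 32.8 in liver, 1571 ± 227 in brain, 240 ± 35.7 in duodenum and 3261 ± 30.5 in muscle (-2.20 ± 0.30), with 2 of 4 probe sets called. LAMA4 of vessel basement membranes, MFAP2 of microfibrils and the proteoglycan FMOD had smallest differences of -1.73, -1.69 and -1.53. For LAMA4, 1 of 2 probe sets was called.

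Of 58 tested genes of Wnt, Notch, Hedgehog and guidance signalling, of 65 listed, 1 was higher and 10 lower (median -0.83). The guidance receptor NEO1, which in mammals also supports the hepcidin path, averaged 334 ± 81.6 in liver, 2278 ± 325 in brain, 1746 ± 881 in duodenum and 1223 ± 289 in muscle (-1.79 ± 0.28). GLI3, a Hedgehog effector, and the ephrin receptors EPHA3 and EPHA7 had smallest differences of -1.49, -1.26 and -1.21. For EPHA3, 1 of 2 probe sets was called. The EPHA7 call was lost under 3 of 22 settings, among them leaving out liver pool 2 or duodenum pool 2. WNT11 was the higher member, with 300, 460 and 328 in liver and at most 84.3 in any other pool. Of 51 tested patterning factors, of 66 listed, 2 were higher and 7 lower (median -0.73). KLF5, a factor of gut epithelium and smooth muscle, had 24.7, 19.3 and 32.4 in liver, 168, 133 and 117 in brain, 900, 830 and 1406 in duodenum and 1208, 740 and 1730 in muscle. TCF4, MEIS1 and TSHZ1 were -1.56, -1.52 and -1.41 from the nearest tissue, with the TSHZ1 call lost under 7 of 22 settings. For KLF5 and TCF4, 1 of 2 probe sets was called. FOXP2 was 1.31 above it, with 1327, 1224 and 1363 in liver and at most 555 in any other pool.

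Marker lists of other tissues are set beside 8.72% higher and 7.03% lower over all genes. A call needs liver to differ from every other tissue, whereas such a marker is known for being bright in 1. Brain markers had 0 higher and 2 lower of 19 tested (21 listed; median -3.01), SYN2 and the synaptic protein SNAP25. The number lower ran from 1, with the larger added value, to 4, without liver pool 2. For SYN2, 1 of 3 probe sets was called, and for SNAP25, 2 of 6. SNAP25 had 1.38, 1.25 and 3.93 in liver and 16.2, 87.1 and 42.5 in muscle, the nearest tissue. Muscle markers had 0 of 19 tested (24 listed) called either way by limma (median -3.01) and 1 lower at an unadjusted p under 0.05. Pair by pair, 18 of them were lower in liver than in muscle, where 27.5% of all genes were.

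The day 7 arrays, which did not enter the calls above, gave a second look at the same genes. Of 976 genes higher at hatch, 643 (65.9%) were also higher than every tissue at day 7, where 883 of all 11187 genes (7.89%) were. None was lower than every tissue. Of the 298 at least 4-fold higher at hatch, 271 (90.9%) were higher at day 7. Of 787 genes lower at hatch, 332 (42.2%) were lower at day 7, against 467 of all genes (4.17%), and 60 of the 69 at least 4-fold lower were (87.0%). Crossing over was seen for 2 genes, lower than every tissue at hatch and higher than every tissue at day 7: FADS2 and SQLE. The lower call at hatch was lost under 9 of 22 settings for SQLE and 1 of 22 for FADS2.

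**Figure D5:**
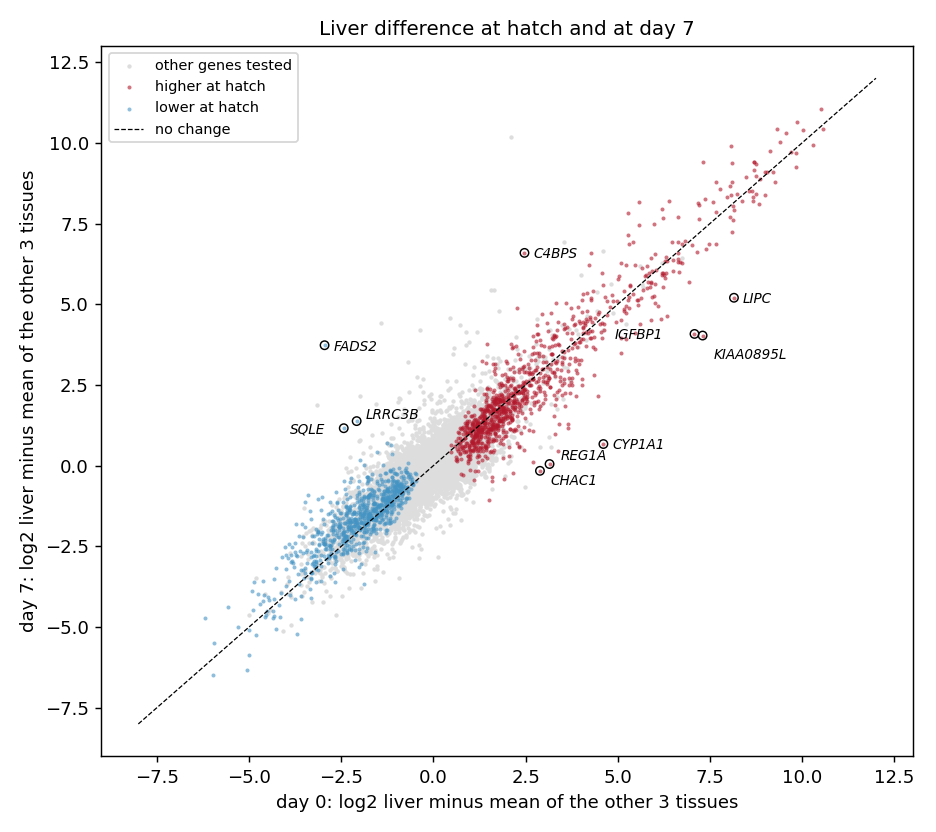
Log2 difference of liver from the mean of the other 3 tissues at day 7 against the same at day 0, 1 point per gene, with the genes called higher or lower at hatch in colour and the line of no change dashed. The 10 circled genes are those called at hatch with the largest change. Of these, FADS2, SQLE and LRRC3B moved from below to above 0, and CHAC1 moved from 2.89 to -0.16.

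A change of the liver difference between the ages was tested with the 24 arrays, as liver minus the mean of the other tissues at day 7, less the same at day 0. Of 24748 probe sets, 4.54% changed upward and 3.79% downward. Duodenum pool 1 of day 7 stood apart, with an added-control signal of 36445 against 4857 and 7438 in pools 2 and 3. The duodenum averages of day 7 printed below include it. Leaving it out, 2558 probe sets changed, against 2062 with all arrays. Per gene it was called for 612 genes upward (5.47%) and 629 downward (5.62%). Among the 976 genes higher at hatch it was upward for 74 and downward for 120, and among the 787 lower at hatch upward for 141 and downward for 14. The hatch calls and the change share the day 0 arrays, and choosing genes on those arrays favours smaller differences at day 7. How much of these counts comes from that was not tested. FADS2 in liver had 15632, 10363 and 9701 at day 7, against 5.06, 87.6 and 70.5 at day 0, and its liver difference changed by 6.68 ± 0.39 (adjusted p = 5.89e-11). C4BPS, a complement regulator by its annotation, averaged 13169 ± 3289 in liver at day 7 and 619 ± 73.9 at day 0, a change of 4.12 ± 0.37. In the opposite direction, LIPC averaged 1790 ± 559 in liver at day 7 and 15064 ± 556 at day 0 (-2.95 ± 0.43), and IGFBP1 1946 ± 256 at day 7 and 14681 ± 2409 at day 0 (-3.0 ± 0.32). Both remained higher than in every tissue.

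For some genes other tissues changed level as well. CYP1A1 averaged 457 ± 69.7 in liver at day 7 and 2320 ± 524 at day 0, while in duodenum it averaged 2974 ± 705 at day 7 and 81.2 ± 51.4 at day 0. CHAC1, which degrades glutathione, averaged 413 ± 51.5 in liver at day 7 and 6010 ± 1177 at day 0, and was also dimmer at day 7 in brain, with 227 ± 35.2 at day 7 and 849 ± 410 at day 0, and in duodenum, with 282 ± 91 at day 7 and 883 ± 113 at day 0. In muscle CHAC1 averaged 1609 ± 660 at day 7 and 701 ± 238 at day 0. LRRC3B averaged 751 ± 204 in liver at day 7 and 180 ± 76.7 at day 0, and in muscle 45.8 ± 27.1 at day 7 and 1049 ± 192 at day 0. By list, the liver difference moved upward for 13 of 18 fatty acid synthesis genes, with 1 downward. The same held for 10 of 16 cholesterol synthesis genes, with 2 downward. It moved downward for 24 of 52 cell division genes, with 0 upward, and 5 of 25 fatty acid oxidation genes, with 1 upward. Over all genes, 5.47% moved upward and 5.62% downward.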

How the data were processed

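The table the authors deposited gives 1 linear intensity per probe set for each of 24 chicken arrays. MAS5 is the tool named per the submitters' processing notes, with no version. On each of the 12 day 0 arrays the trimmed mean was 500.1, so the signals had been scaled, and none was normalized again. Of 38535 probe sets, 96 controls were left out, and a probe set was tested where at least 1 day 0 group averaged 102 or more, the median day 0 signal. Tests used limma 3.58.1 in R 4.3.3 on log2(signal + 27.6), with a mean for each of 4 tissues over the 12 arrays (8 residual degrees of freedom, variance trend) and, for day 7, a mean for each of 8 groups over 24 arrays. The script was tested on simulated data. The platform annotation gave 27168 probe sets 1 gene symbol, 177 several and 11094 none. Symbols were updated by gene number through RefSeq's GRCg7b table (26853 matched), and the brightest probe set stood for a gene.

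Named genes are the 15 highest and 15 lowest with pools that do not overlap, up to 4 called members per direction of each of 38 lists, every called hepatocyte factor and the 10 called genes with the largest change by day 7. The comparison, its genes and the lists were chosen with earlier results of these data known. Precision is limited by 3 pools per group. Alternatives were other added values, no filter, quantile normalization, median centring, no variance trend, array weights, all 24 arrays, a replicate block and leaving out each array. Scanner files, detection calls and promoter motifs were not analysed here.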

Additional observations from a re-analysis of the deposited data

Results flagged for a closer look

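For 43 of 165 named genes the difference of liver from the mean of the other tissues was itself different at day 7 and at day 0. The change was tested with limma over 24 arrays. Over all genes it was upward for 5.47% and downward for 5.62%. Some of the 43 were named because their change was among the largest, and C4BPS, LRRC3B, KIAA0895L and CHAC1 only for that. That such genes passed this test follows from how they were chosen. All values here are log2 changes of the liver difference, day 7 less day 0, and a positive one means that liver stood higher against the other tissues at day 7. The genes were called at hatch with a 4-tissue fit that shares the day 0 arrays, so the change and the call at hatch are not independent.

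Among genes lower in liver at hatch, the change was upward for FADS2 (6.68) and SQLE (3.59), both of lipid synthesis, for the membrane protein LRRC3B (3.46) and for MVD (1.96), MFAP2 (1.76), TRIM36 (1.75), KLF5 (1.57), NFIA (1.41), PPP1R14C (1.21), GLI3 (1.16) and ANGPT2 (1.09). It was downward for CXCL14 (-1.29) and MID1IP1 (-1.11). Not every upward change was mainly a rise in liver. PPP1R14C averaged 61.2 ± 13.4 in liver at day 7 and 44.4 ± 37.8 at day 0, but 233 ± 73.8 and 839 ± 68.7 in duodenum. ANGPT2 averaged 161 ± 94.6 in liver at day 7 and 118 ± 17.6 at day 0, but 586 ± 65.2 and 1455 ± 62.2 in duodenum. GLI3 averaged 147 ± 16.3 in liver at day 7 and 107 ± 26.0 at day 0, but 207 ± 89.7 and 522 ± 64.1 in duodenum.

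Among genes higher in liver at hatch, upward changes came for C4BPS (4.12), the haem carrier HPX (2.08), CYP2W2 (1.87), the fat synthesis genes ACLY (1.66) and FASN (1.56), CYP7A1 (1.52), SPP1 (1.49), CEBPB (1.34), TIMD4 (1.26), A2ML4 (1.12), PPARA (0.98), PRPS2 (0.96), SLC25A1 (0.80) and ATIC (0.55). The glycogen genes PPP1R3B (1.17), GBE1 (1.07) and PYGL (0.76) moved the same way, with 1 of 2 PPP1R3B probe sets called at hatch. HPX averaged 65875 ± 7277 in liver at day 7 and 28080 ± 131 at day 0, and FASN 47605 ± 6800 at day 7 and 11909 ± 3300 at day 0 (SD, n = 3 pools).

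Downward changes among the higher genes came for CYP1A1 (-3.94), KIAA0895L (-3.27), REG1A (-3.10), the glutathione-degrading enzyme CHAC1 (-3.05), IGFBP1 (-3.0) and LIPC (-2.95). The fat-burning genes CPT1A (-1.73) and EHHADH (-1.55), the lipoprotein gene APOA5 (-1.62), the glucose output genes PCK1 (-1.41) and SLC37A4 (-0.99), HMGCS1 (-1.33) and SLC16A1 (-0.84) followed. CPT1A averaged 795 ± 89.3 in liver at day 7 and 3019 ± 329 at day 0. Not every downward change was a drop in liver. HMGCS1 averaged 22416 ± 551 in liver at day 7 and 17769 ± 1790 at day 0, but 4994 ± 1480 and 531 ± 132 in duodenum. SLC37A4 averaged 8699 ± 831 in liver at day 7 and 10822 ± 1011 at day 0, but 6176 ± 38.2 and 1290 ± 231 in muscle. For KIAA0895L and SLC37A4, 1 of 2 probe sets was called at hatch. The call of a change was lost under at least 1 setting for ANGPT2, ATIC, CPT1A, CYP2W2, CYP7A1, GLI3, KLF5, MFAP2, PCK1, PPP1R14C, PRPS2, PYGL, SLC16A1, SLC25A1 and SLC37A4.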

How the results depend on the processing

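With the median signal added before log2, 46 probe sets were at least 4-fold lower against 131 as reported, and with array weights 3905 changed by day 7 against 2062. The cause was not tested. Leaving out 1 array at a time gave 1382 to 1754 higher, 1200 to 1623 lower, 506 to 520 at least 4-fold higher, 124 to 153 at least 4-fold lower, 13869 to 15955 different from brain, 7973 to 10123 from duodenum, 10749 to 13132 from muscle, and 1431 to 2558 changed by day 7. The remaining settings stayed within 1.5 times of the counts over all probe sets, from 1547 to 2051 higher and from 1017 to 2050 lower. Quantile normalization put 58.1% of calls on the higher side. No named gene's smallest difference changed sign, and between 0 and 13 of 165 lost the call per setting. Residuals of same-numbered pools correlated at -0.208 to 0.140 (median 0.03) and of different numbers at -0.209 to 0.254 (median -0.014). Residuals from means of 3 pools cannot show whether pools with the same replicate number came from the same birds. With the number as a replicate block, 1653 were higher, 1482 lower, 513 and 131 at least 4-fold so, and 2039 changed by day 7. Signals near the added value limit the size of large differences, and 3 pools per tissue limit small ones. The planned motif search in promoters was not run.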
